A study of Homo sapiens with 4 samples.

Results

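The nuclear genes for subunits of respiratory complexes II, III, IV and V, together with the gene for cytochrome c, were compared between FYB1 knockdown and control libraries of the human cell line J-gammal. The members are 36 genes chosen by name from the known composition of the complexes and matched to the deposited table through their GENCODE 29 identifiers. All 36 were among the 28274 genes of the table, and all 36 passed the filter of a mean of at least 1 FPKM (fragments per kilobase of exon, relative to a library total) that left 13172 genes for testing. They comprise 4 genes of complex II, 9 of complex III, 10 of complex IV, 12 of complex V and CYCS.

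Gene expression was measured by RNA sequencing in 4 libraries, made from 1 µg of total RNA each. Knockdown 1 and knockdown 2 carry the genotype FYB1 knockdown, and FYB1 encodes an adaptor protein of T cell receptor and integrin signalling. Controls 1 and 2 are named as untreated in their source names and carry NC in their titles, letters that the labels leave unexplained. The sources used here do not tell if the controls received a control construct or if both knockdown libraries received the same construct, so an effect of the construct and one of FYB1 loss cannot be told apart. The labels do not say whether the libraries come from separate cultures, so the p-values below reflect only how far these libraries lie apart, a spread that may be technical.

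Oxidative phosphorylation takes place in the inner mitochondrial membrane. Complex II, which is also succinate dehydrogenase of the citric acid cycle, and complex III pass electrons by way of ubiquinone, cytochrome c carries them on, and complex IV hands them to oxygen. Complexes III and IV pump protons, and complex V, the ATP synthase, uses the proton gradient to make ATP. Complex II is encoded entirely in the nucleus, whereas complexes III, IV and V also contain subunits encoded by mitochondrial DNA. Proliferating T cells use this pathway beside glycolysis.

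The targeted gene followed the labels. FYB1 (chromosome 5, minus strand, hg38) had 6.18 and 4.53 FPKM in knockdown libraries 1 and 2, against 17.6 and 20.1 FPKM in controls 1 and 2. Its level was lower in both knockdown libraries than in either control, by 1.65 ± 0.15 on the log2(FPKM + 1) scale (SE; limma-trend adjusted p = 0.0398) and by 71.5% of the control mean. That call was lost without knockdown 1 (adjusted p = 0.203), without knockdown 2 (adjusted p = 0.0555) and with every gene above 0 tested (adjusted p = 0.264), while limma-voom on recovered reads gave an adjusted p of 0.000419. The libraries held 16693113 and 20251864 recovered reads in knockdown 1 and 2, and 17597678 and 17216663 in controls 1 and 2. All 10 T cell markers passed the filter, with LCK at 229 and 291 FPKM in the knockdown libraries, against 276 and 269 FPKM in the controls. By limma-voom 3 T cell markers fell, namely TRBC1, CD3D and TRBC2 (adjusted p = 0.00428, 0.02 and 0.0277), and the median log2 fold change of the 10 was −0.39. Over all tested genes limma-voom called 5.8% lower. Without knockdown 1 and without control 1 limma-voom kept the call on TRBC1 alone (adjusted p = 0.0266 and 0.0091). The B cell marker CD79A also fell, with 11.1 and 15.8 FPKM in the knockdown libraries, against 24.5 and 21.2 FPKM in the controls (limma-voom adjusted p = 0.0297, but 0.113 without knockdown 1 and 0.167 without control 1). The 15 further markers of B, myeloid, NK, erythroid, epithelial and stromal cells found in the table were each at most 0.69 FPKM, and their sum was 1.6 and 1.97 FPKM in the knockdown libraries and 1.68 and 1.41 FPKM in the controls. The part of these marker changes in the results below was not tested.

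All 36 members had a lower mean in the knockdown libraries with the authors' scaling, against 54.3% of all tested genes. After quantile normalization 30 members did, against 6448 of 13172 tested genes. When libraries were scaled by their summed reads 34 members did, against 5151 of 13182 tested genes. With the authors' scaling the members' median log2 fold change was −0.45, against −0.03 over all tested genes. Single members ran from −0.76 for UQCRQ to −0.01 for ATP5PB. In 32 of the 36 both knockdown libraries lay below both controls, a pattern seen in 34.6% of tested genes. The exceptions were UQCRB, COX5A, ATP5F1C and ATP5PB, whose groups overlapped. In bulk RNA, fewer cells of a type and less RNA per cell cannot be told apart.

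By limma-trend none of the 36 passed an adjusted p of 0.05, and the smallest was 0.1 for SDHD, with 0.205% of all genes called in either direction and 0.137% called lower. At an unadjusted p under 0.05, 19 of the 36 were lower, against 14.9% of all genes. By limma-voom on recovered reads 17 of the 36 fell and 0 rose, against 5.8% of all genes called lower and 1.94% called higher. The number of calls changed with each library left out. Such a fit has a lone library in 1 group, takes the spread from the other group, and assumes that the lone library varies alike. Without knockdown 1 limma-voom called 0 members (20 at an unadjusted p under 0.05, smallest adjusted p = 0.0665), against 0.562% of all genes called lower, and the members' median limma-voom log2 fold change was −0.32, against −0.45 with all 4 libraries. Without control 1 it called 0 members (15 at an unadjusted p under 0.05, smallest adjusted p = 0.154), against 0.828% of all genes, with a median of −0.40. Without knockdown 2 it called 30, against 19.7% of all genes, and without control 2 it called 8, against 2.8%, with medians of −0.66 and −0.55. At a mean of at least 20 recovered reads limma-voom called 14, against 4.96% of all genes called lower. UQCRH, COX5B and ATP5F1E were no longer called there (limma-voom adjusted p = 0.0517, 0.051 and 0.0511). With the sum of recovered reads in place of the authors' totals limma-voom called 0, with 22 at an unadjusted p under 0.05 and a smallest adjusted p of 0.054. Under that scaling limma-voom called 212 genes lower and 259 higher over all tested genes, against 764 lower and 255 higher with the authors' totals.

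**Figure D1:**
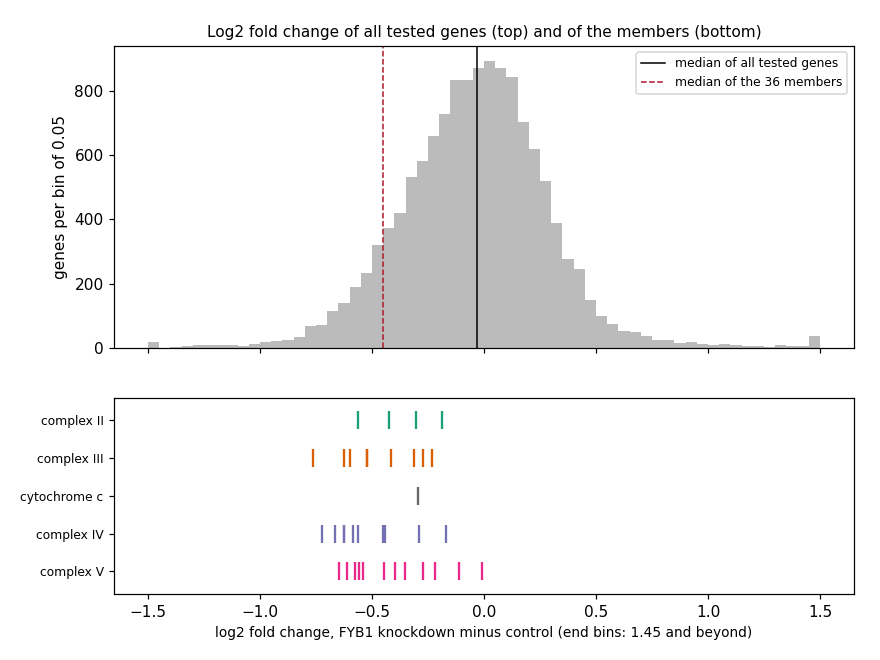
Log2 fold changes on log2(FPKM + 1), FYB1 knockdown minus control, for all 13172 tested genes as a histogram (top; genes per bin of 0.05) and for each of the 36 members as a tick in the row of its complex (bottom). The members lie between −0.76 and −0.01 with a median of −0.45 (dashed line), and the median of all genes is −0.03 (solid line).

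The members moved together within each library. Relative to the control mean of each gene, the median member stood at −0.65 in knockdown 1 and −0.31 in knockdown 2, against 0.09 in control 1 and −0.09 in control 2. Knockdown 1 was below knockdown 2 in 36 of 36 members, against 7640 of 13172 tested genes. Control 1 was above control 2 in 35 of 36 members, against 7274 of 13172 tested genes. Each order was also seen in 10 of 10 T cell markers, but in 6 and 9 of 12 tested regulators of respiratory genes. The members' median difference between the knockdown libraries was −0.35 and that between the controls was 0.17. The spread within a group was thus shared by almost every member. The members held 0.514% and 0.594% of the recovered reads in knockdown 1 and 2, against 0.704% and 0.649% in controls 1 and 2.

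**Figure D2:**
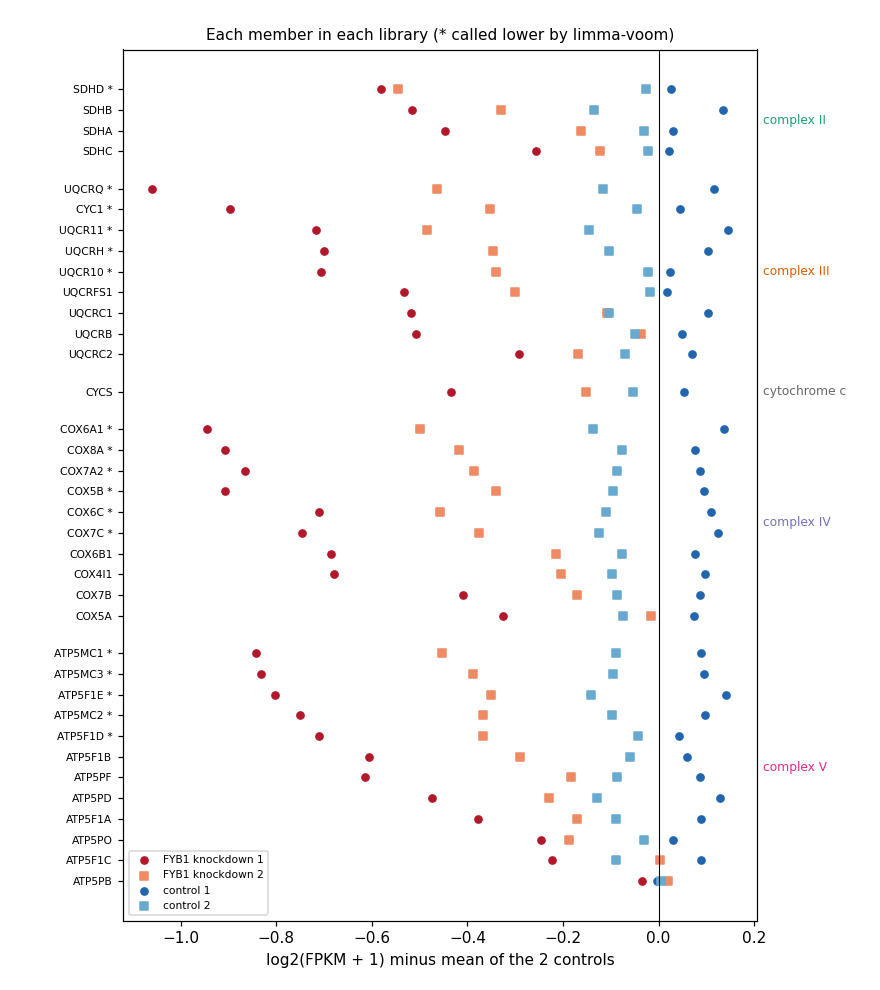
Each member in each library as log2(FPKM + 1) minus the mean of the 2 controls for that gene (x axis), with rows grouped by complex and ordered by fold change; an asterisk marks the 17 members called lower by limma-voom. Knockdown 1 (dark red) lies left of knockdown 2 (orange) in every row, and control 1 (dark blue) lies right of control 2 (light blue) in 35 of 36 rows.

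Complex IV had the most negative median log2 fold change, −0.57, followed by complex III at −0.52, complex V at −0.42 and complex II at −0.36. CYCS stood at −0.29. The medians of single libraries varied within groups with SDs of 0.12 for complex II to 0.21 for complex IV. Almost every member shared that spread, so the SDs do not measure differences between complexes within a library. In knockdown 1 and 2 the median stood at −0.73 and −0.36 for complex IV and −0.48 and −0.25 for complex II. In controls 1 and 2 it stood at 0.09 and −0.09 for complex IV and 0.03 and −0.03 for complex II. The order of the complexes was not tested. Fold changes varied with exon length in these libraries: in 4 equal classes of exon length, from the shortest to the longest, the median log2 fold change of all tested genes was −0.09, −0.14, −0.04 and 0.10. The Spearman correlation of exon length with log2 fold change, a description across genes that share the same 4 libraries, was 0.221 over 13172 tested genes, 0.448 over the 10570 protein-coding ones and 0.496 over the 36 members. The median exon length was 2726.5 bases for the members, within the second class, and the part of length in their fold changes was not tested beyond the correction that follows. After a loess correction for exon length and GC content, the members' median was −0.40, and the medians were −0.38 for complex II, −0.43 for complex III, −0.53 for complex IV and −0.32 for complex V. In that setting limma-voom called 8.25% of all genes lower and 16 members, of which 15 were among the 17, with UQCRFS1 added and CYC1 and ATP5F1D no longer called.

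Complex II oxidises succinate to fumarate and has a catalytic pair and a membrane anchor. Of its 4 genes, 1 fell by limma-voom, against 5.8% of all genes called lower. SDHD, an anchor subunit that helps bind ubiquinone and haem, had 13.2 and 13.5 FPKM in knockdown libraries 1 and 2, against 20.6 and 19.8 FPKM in controls 1 and 2. The libraries within each group lay close together, and the knockdown mean was 33.9% below the control mean. The fold change was −0.56 ± 0.10 on the log2 scale by limma-trend (adjusted p = 0.1) and −0.60 ± 0.12 by limma-voom (adjusted p = 0.0233).

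The other anchor subunit, SDHC, had 5.66 and 6.31 FPKM in the knockdown libraries, against 7.07 and 6.84 FPKM in the controls. Its groups did not overlap, but the log2 fold change of −0.22 ± 0.12 did not pass limma-voom (adjusted p = 0.257). SDHB, the iron-sulfur subunit, had 21.5 and 24.6 FPKM in the knockdown libraries, against 34.3 and 28.3 FPKM in the controls (limma-voom adjusted p = 0.071). SDHA, the flavoprotein that oxidises succinate, had 11.3 and 14 FPKM in the knockdown libraries, against 16.2 and 15.5 FPKM in the controls (limma-voom adjusted p = 0.135). The annotated pseudogenes named after SDHA held reads equal to 30.3% to 42.9% of its own in the 4 libraries. Reads of SDHA and its copies may thus have been split in counting.

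In complex III, 5 of 9 genes fell by limma-voom, against 5.8% of all genes called lower. The core set comprises the redox subunits CYC1 and UQCRFS1 and the large matrix-side proteins UQCRC1 and UQCRC2, and 1 of these 4 fell. Of the 5 small subunits, 4 fell. The median log2 fold changes were −0.36 for the core set and −0.52 for the small subunits, a difference that was not tested.

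UQCRQ (chromosome 5, plus strand), a small subunit that contacts cytochrome b, had 37.3 and 56.9 FPKM in knockdown libraries 1 and 2, against 85.6 and 72.7 FPKM in controls 1 and 2. Knockdown 1 was the lowest by a wide margin, and the groups did not overlap. The log2 fold change was −0.76 ± 0.22 by limma-trend (adjusted p = 0.153) and −0.77 ± 0.18 by limma-voom (adjusted p = 0.0309). CYC1, which carries the haem of cytochrome c1 and passes electrons to cytochrome c, had 56.4 and 82.7 FPKM in the knockdown libraries, against 109 and 103 FPKM in the controls, and fell by 0.63 ± 0.16 (limma-voom adjusted p = 0.042). UQCRH, the acidic hinge protein at the cytochrome c docking site, was the most abundant member of the complex, with 101 and 129 FPKM in the knockdown libraries and 177 and 153 FPKM in the controls, and fell by 0.53 ± 0.14 (limma-voom adjusted p = 0.049). For CYC1 and UQCRH alike, knockdown 1 was the lowest library and no knockdown library reached a control.

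UQCR10 and UQCR11, small subunits beside the Rieske protein, also fell. UQCR10 had 46.6 and 60.3 FPKM in the knockdown libraries, against 77.9 and 75.4 FPKM in the controls (limma-voom log2 fold change −0.53 ± 0.14, adjusted p = 0.0463). UQCR11 had 7.54 and 9.03 FPKM in the knockdown libraries, against 14.5 and 11.7 FPKM in the controls (−0.65 ± 0.16, adjusted p = 0.0372). UQCRFS1, the Rieske iron-sulfur protein, missed the threshold of limma-voom, with 28.2 and 33.3 FPKM in the knockdown libraries and 41.8 and 40.7 FPKM in the controls (adjusted p = 0.0591).

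The smallest difference of the complex was that of UQCRC2, at 60.0 and 65.5 FPKM in the knockdown libraries, against 77.4 and 70.2 FPKM in the controls (limma-voom −0.23 ± 0.13, adjusted p = 0.26). UQCRC1 had 71.6 and 95.5 FPKM in the knockdown libraries, against 110.8 and 95.8 FPKM in the controls, so knockdown 2 almost reached control 2 (adjusted p = 0.203). UQCRB, which lies at the ubiquinone-binding side, had 12.2 and 17.3 FPKM in the knockdown libraries, against 18.5 and 17.2 FPKM in the controls. Only knockdown 1 was below the controls there (adjusted p = 0.246). CYCS, the mobile electron carrier that also takes part in apoptosis, had 18.6 and 22.8 FPKM in the knockdown libraries, against 26.4 and 24.5 FPKM in the controls (limma-voom −0.31 ± 0.13, adjusted p = 0.16).

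**Figure D3:**
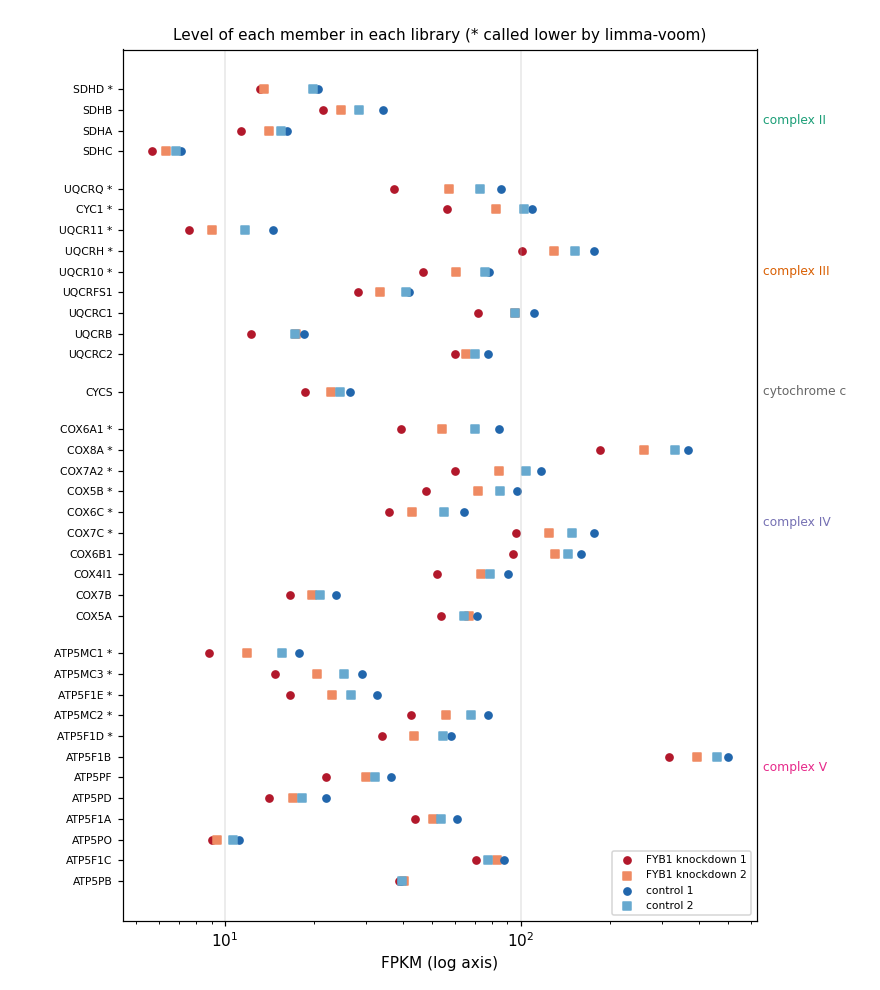
FPKM of each member in each library (log axis), with rows grouped by complex and ordered by fold change; an asterisk marks the 17 members called lower by limma-voom. Control means span from 6.96 FPKM for SDHC to 481 FPKM for ATP5F1B, and the 2 knockdown libraries lie left of both controls in 32 rows.

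Complex IV reduces oxygen, and its nuclear subunits surround the catalytic core that mitochondrial DNA encodes. Of the 10 genes, 6 fell by limma-voom, against 5.8% of all genes called lower. COX6A1, the widely expressed form of subunit VIa that lies at the dimer contact, had 39.3 and 53.9 FPKM in knockdown libraries 1 and 2, against 84.4 and 69.7 FPKM in controls 1 and 2. The lowest control was above the highest knockdown library, and the log2 fold change was −0.72 ± 0.19 by limma-trend (adjusted p = 0.143) and −0.73 ± 0.16 by limma-voom (adjusted p = 0.0277). COX8A, a short membrane subunit, had 186 and 261 FPKM in the knockdown libraries, against 368 and 331 FPKM in the controls (limma-voom −0.66 ± 0.16, adjusted p = 0.0324). Its knockdown mean was 36.1% below the control mean.

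COX7A2, the widely expressed form of subunit VIIa, had 60.0 and 84.1 FPKM in the knockdown libraries, against 117 and 104 FPKM in the controls (limma-voom −0.63 ± 0.16, adjusted p = 0.0372). COX5B, the zinc-binding subunit on the matrix side, had 47.8 and 71.4 FPKM in the knockdown libraries, against 96.9 and 84.7 FPKM in the controls (−0.63 ± 0.17, adjusted p = 0.0482). Both showed the same order of libraries, with knockdown 1 lowest and control 1 highest. COX6C, a membrane-spanning subunit, had 35.9 and 43.0 FPKM in the knockdown libraries, against 64.1 and 54.9 FPKM in the controls (−0.60 ± 0.14, adjusted p = 0.0303). COX7C, another small membrane subunit, had 96.2 and 125 FPKM in the knockdown libraries, against 177 and 149 FPKM in the controls (−0.57 ± 0.15, adjusted p = 0.0468).

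The 4 complex IV genes not called were COX4I1, COX5A, COX6B1 and COX7B. COX5A, a matrix-side subunit, had the smallest difference, with 53.6 and 66.8 FPKM in the knockdown libraries and 71.1 and 64.0 FPKM in the controls (limma-voom −0.17 ± 0.14, adjusted p = 0.434). Knockdown 2 exceeded control 2, so its groups overlapped. COX4I1, the largest nuclear subunit and a site of regulation by ATP, had 52.2 and 73.0 FPKM in the knockdown libraries, against 90.2 and 78.7 FPKM in the controls (adjusted p = 0.106). COX6B1, which faces the intermembrane space, had 93.9 and 131 FPKM in the knockdown libraries, against 160 and 144 FPKM in the controls (adjusted p = 0.0886). COX7B had 16.5 and 19.7 FPKM in the knockdown libraries, against 23.7 and 20.9 FPKM in the controls (adjusted p = 0.169).

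In complex V, 5 of 12 genes fell by limma-voom, against 5.8% of all genes called lower. The 5 were the 3 genes of the membrane c ring and 2 of the 3 genes of the central stalk. Of the central stalk the δ and ε subunit genes fell and the γ subunit gene ATP5F1C was not called. Of the genes for the α and β subunits of the catalytic head 0 of 2 were called, and of those for the peripheral stalk 0 of 4. The median log2 fold changes were −0.61 for the c ring, −0.54 for the central stalk (−0.11 for its γ subunit), −0.36 for the catalytic head and −0.28 for the peripheral stalk. Differences between these parts of the enzyme were not tested.

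The c subunit forms the rotor ring that protons turn, and 3 genes on different chromosomes, ATP5MC1 on 17, ATP5MC2 on 12 and ATP5MC3 on 2, encode precursors whose last 77 residues are identical. The coding bases of those residues, from 1 GENCODE 29 transcript of each gene, are shown because they tell these near copies apart for a read counter. Each stretch has 231 bases, read 5′ to 3′ on the coding strand, and capitals mark the 57 positions (24.7%) where at least 1 of the 3 genes differs.
ATP5MC1: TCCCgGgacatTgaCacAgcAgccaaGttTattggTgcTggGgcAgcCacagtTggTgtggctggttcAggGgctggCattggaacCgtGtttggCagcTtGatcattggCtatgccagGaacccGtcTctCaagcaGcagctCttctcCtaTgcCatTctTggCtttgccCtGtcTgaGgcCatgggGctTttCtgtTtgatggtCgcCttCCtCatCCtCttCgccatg
ATP5MC2: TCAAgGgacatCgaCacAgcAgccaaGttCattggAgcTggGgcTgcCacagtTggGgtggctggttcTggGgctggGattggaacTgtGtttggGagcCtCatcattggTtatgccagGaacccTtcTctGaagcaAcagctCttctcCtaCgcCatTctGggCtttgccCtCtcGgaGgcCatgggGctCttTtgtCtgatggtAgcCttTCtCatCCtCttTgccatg
ATP5MC3: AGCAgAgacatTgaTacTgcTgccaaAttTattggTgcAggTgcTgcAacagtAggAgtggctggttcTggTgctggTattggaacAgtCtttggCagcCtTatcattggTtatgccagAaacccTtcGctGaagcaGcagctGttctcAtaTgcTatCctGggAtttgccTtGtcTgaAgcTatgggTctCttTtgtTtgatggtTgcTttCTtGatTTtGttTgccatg
ATP5MC1 and ATP5MC2 were identical at 88.3% of these bases (27 differ), and each was identical to ATP5MC3 at 80.1% (46 differ).

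ATP5MC2 was the most abundant of the 3, with 42.6 and 55.9 FPKM in knockdown libraries 1 and 2, against 77.5 and 67.6 FPKM in controls 1 and 2 (limma-voom −0.57 ± 0.15, adjusted p = 0.0435). ATP5MC3 had 14.8 and 20.4 FPKM in the knockdown libraries, against 29 and 25.3 FPKM in the controls (−0.64 ± 0.16, adjusted p = 0.0352). ATP5MC1 had 8.82 and 11.9 FPKM in the knockdown libraries, against 17.7 and 15.6 FPKM in the controls (−0.69 ± 0.16, adjusted p = 0.0308). The 3 genes kept their order in each library, and the share of ATP5MC2 in their sum was 64.4% and 63.4% in the knockdown libraries and 62.4% in each control. The share of ATP5MC1 was 13.3% and 13.4% in the knockdown libraries, against 14.3% in each control.

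ATP5F1D, the δ subunit at the foot of the central stalk, had 33.9 and 43.4 FPKM in the knockdown libraries, against 57.9 and 54.5 FPKM in the controls (limma-voom −0.55 ± 0.14, adjusted p = 0.0376). ATP5F1E, the ε subunit beside it, had 16.5 and 23.0 FPKM in the knockdown libraries, against 32.7 and 26.7 FPKM in the controls (−0.60 ± 0.16, adjusted p = 0.0483). Neither pair of groups overlapped. ATP5F1B, the β subunit with the catalytic sites, had 316 and 393 FPKM in the knockdown libraries, against 501 and 461 FPKM in the controls, the highest level per exon length among the members in both groups (adjusted p = 0.0973). ATP5F1A, the α subunit, had 43.7 and 50.6 FPKM in the knockdown libraries, against 60.8 and 53.7 FPKM in the controls (adjusted p = 0.228). The γ subunit gene ATP5F1C, the rotating shaft of the central stalk, had 70.6 and 82.7 FPKM in the knockdown libraries, against 87.8 and 77.5 FPKM in the controls, and its groups overlapped (adjusted p = 0.6).

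The peripheral stalk holds the catalytic head against rotation. ATP5PB, its b subunit, had 38.6 and 40.1 FPKM in the knockdown libraries, against 39.5 and 39.7 FPKM in the controls. All 4 libraries lay within a narrow band, and the log2 fold change of −0.01 ± 0.11 (limma-trend adjusted p = 0.97) was the smallest of the 36. ATP5PD, the d subunit, had 14.1 and 16.9 FPKM in the knockdown libraries, against 21.9 and 18.2 FPKM in the controls (limma-voom adjusted p = 0.12). ATP5PF, the F6 subunit, had 21.9 and 29.9 FPKM in the knockdown libraries, against 36.2 and 32 FPKM in the controls (limma-voom adjusted p = 0.115). ATP5PO, the subunit that confers oligomycin sensitivity and joins stalk and head, had 9.01 and 9.41 FPKM in the knockdown libraries, against 11.1 and 10.6 FPKM in the controls (limma-voom adjusted p = 0.251). A ratio chosen after the values were seen, summed FPKM of the c subunit genes over that of the peripheral stalk genes, was 0.792 and 0.915 in the knockdown libraries, against 1.14 and 1.08 in the controls. Its exact two-sided permutation p was 0.333, the smallest that 2 libraries against 2 can give.

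The nuclear members were set against the mitochondrially encoded subunits of the same complexes, which they join in the membrane. All 6 mitochondrially encoded subunits of complexes III, IV and V had a higher mean in the knockdown libraries with the authors' scaling, against 6021 of 13172 tested genes. With summed reads all 6 were higher too, against 8031 of 13182 tested genes. Without control 1 and after the correction for length and GC content 5 of 6 were higher, and without knockdown 2 it was 3 of 6. After quantile normalization 2 of 6 were higher, 1 was lower and the rest had a fold change of 0. Over all tested genes 6719 of 13172 were higher in that setting. Quantile normalization gives a gene with the same rank in each library the same value. With the authors' scaling their median log2 fold change was 0.11, and 0 passed limma-voom. MT-CO2, a core subunit of complex IV, had 8326 and 9909 FPKM in the knockdown libraries, against 8215 and 7971 FPKM in the controls (limma-voom adjusted p = 0.593). MT-CO1, which holds the oxygen-reducing site, had 6693 and 7453 FPKM in the knockdown libraries, against 6412 and 6131 FPKM in the controls (adjusted p = 0.597). The nuclear complex IV members summed to 0.0374 and 0.0439 of the sum of MT-CO1, MT-CO2 and MT-CO3 in the knockdown libraries, against 0.0701 and 0.064 in the controls, and the ratio of the knockdown mean to the control mean was 0.606. The 9 complex III members over MT-CYB gave 0.248 and 0.265 in the knockdown libraries, against 0.399 and 0.363 in the controls. The 12 complex V members over MT-ATP6 and MT-ATP8 gave 0.243 and 0.242 in the knockdown libraries, against 0.356 and 0.33 in the controls. None of these 3 ratios overlapped between groups, and each had an exact two-sided permutation p of 0.333, the smallest possible with 2 against 2.

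Among 10 further tested nuclear subunits of complexes III to V, 9 had a lower mean in the knockdown libraries, against 54.3% of all tested genes. By limma-voom 4 of the 10 fell, against 5.8% of all genes called lower, and the median log2 fold change of the 10 was −0.41. ATP5MD, a small subunit linked to the dimeric form of ATP synthase, had 51.3 and 66.2 FPKM in the knockdown libraries, against 97.7 and 85 FPKM in the controls (adjusted p = 0.0304). ATP5MPL and ATP5ME, further small membrane subunits of complex V, fell by 0.63 ± 0.14 and 0.80 ± 0.20 (adjusted p = 0.0308 and 0.0368). The fourth was ATP5MF, named outside the rule after its value was seen (adjusted p = 0.0433). Tissue-restricted isoforms were near 0: COX4I2, COX6B2, COX7A1 and COX8C were each below 1 FPKM on average and were not tested. All 4 calls were lost without knockdown 1, without control 1 and with summed reads as library size.

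Of 35 tested assembly factors, 30 had a lower mean in the knockdown libraries (29 after quantile normalization, 26 with summed reads). Over all tested genes these counts were 7151 of 13172 (6448 of 13172 and 5151 of 13182). By limma-voom 2 assembly factors fell, a share close to the 5.8% of all genes called lower, and the median log2 fold change of the list was −0.25. SDHAF1, which helps insert iron-sulfur clusters into SDHB, had 23.4 and 26.7 FPKM in the knockdown libraries, against 39.4 and 36.4 FPKM in the controls (adjusted p = 0.0304). COX17, the copper chaperone of complex IV, had 8.79 and 11.2 FPKM in the knockdown libraries, against 15.7 and 14 FPKM in the controls (adjusted p = 0.0483). Neither was called without knockdown 1, without control 1, without control 2 (adjusted p = 0.0868 for SDHAF1 and 0.0951 for COX17) or with summed reads as library size, and COX17 was not called at a mean of at least 20 reads (0.051). None of the 7 complex III factors was called, with TTC19 at −0.05 ± 0.12 and HCCS, which attaches haem to cytochrome c, at −0.33 ± 0.18 by limma-voom. None of the 3 tested complex V factors was called either, with ATPAF1 at −0.27 ± 0.12 and TMEM70 at −0.20 ± 0.13. After the correction for length and GC content, limma-voom called 4 assembly factors lower, and 8.25% of all genes.

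In the citric acid cycle and pyruvate dehydrogenase list 13 of 16 genes had a lower mean in the knockdown libraries (11 after quantile normalization, 9 with summed reads). Over all tested genes these counts were 7151 of 13172 (6448 of 13172 and 5151 of 13182). The median log2 fold change of the list was −0.17. By limma-voom 0 of its genes passed, against 2 called lower after the length and GC correction (8.25% of all genes). FH, which follows succinate dehydrogenase in the cycle, had 119.8 and 126 FPKM in the knockdown libraries, against 129 and 122.9 FPKM in the controls (adjusted p = 0.859). MDH2, which makes oxaloacetate at the end of the cycle, had 49.7 and 65.4 FPKM in the knockdown libraries, against 82.4 and 77.6 FPKM in the controls (adjusted p = 0.0619). The groups of FH overlapped and those of MDH2 did not.

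Regulators of respiratory genes were mixed, with 6 of 12 lower and 6 higher in mean and a median of 0.05 (4 lower and 8 higher with summed reads). Over all tested genes 7151 were lower and 6021 higher (5151 lower and 8031 higher with summed reads). By limma-voom 1 of the 12 was called lower and 1 higher, against 5.8% and 1.94% of all genes. GABPB2, a partner of the ETS factor GABPA, rose, with 2.96 and 2.66 FPKM in the knockdown libraries and 1.69 and 1.92 FPKM in the controls (limma-voom 0.64 ± 0.15, adjusted p = 0.0326). YY1, a zinc finger factor that binds many respiratory promoters, fell, with 19.0 and 18.1 FPKM in the knockdown libraries and 25.5 and 24.4 FPKM in the controls (−0.43 ± 0.12, adjusted p = 0.0494). Both calls ended without knockdown 1 (adjusted p = 0.105 for GABPB2 and 0.0703 for YY1), without control 1 (0.364 and 0.542) and without control 2 (0.0804 and 0.276). With summed reads as library size GABPB2 was still called (0.0445) and YY1 was not (0.119), and with the replicate block YY1 was not called (0.128). PPARGC1A, the coactivator known for driving mitochondrial biogenesis in muscle and brown fat, was at 0.0359 FPKM or less in each library.

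**Figure D4:**
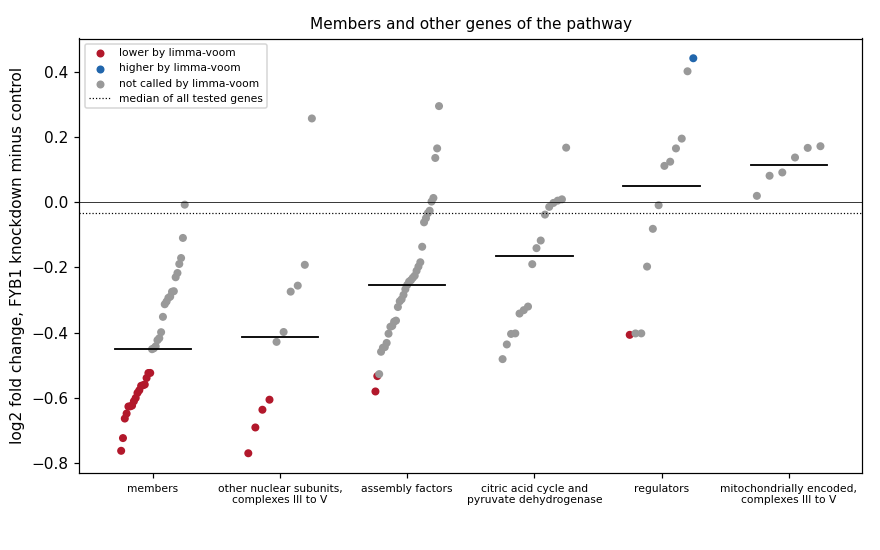
Log2 fold change on log2(FPKM + 1), FYB1 knockdown minus control, of each tested gene in the members and in 5 related lists, coloured by the limma-voom call (red lower, blue higher, grey not called). Bars mark list medians, from −0.45 for the 36 members to 0.11 for the 6 mitochondrially encoded genes, and the dotted line is the median of all genes at −0.03.

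The start regions of the members were searched for words bound by NRF1, by ETS factors such as GABPA and by YY1, regulators for which respiratory genes are known targets. RefSeq windows of GRCh38.p14, from 250 bases before to 50 after a start, were found for 29 of the 36 members. Shown here are windows, all on the plus strand, for the member with the most negative limma-trend fold change in each of complexes II, III and IV, for COX8A as the most abundant of the 17 called members, and for ATP5PB as the member with the fold change nearest 0. Capitals mark matches, on either strand, to GCATGCGC (NRF1), CCGGAAG (ETS) or AAGATGGC (YY1). The windows are SDHD at chr11:112086623-112086922, UQCRQ at chr5:132866392-132866691, COX6A1 at chr12:120437863-120438162, COX8A at chr11:63974370-63974669 and ATP5PB at chr1:111449214-111449513.
SDHD: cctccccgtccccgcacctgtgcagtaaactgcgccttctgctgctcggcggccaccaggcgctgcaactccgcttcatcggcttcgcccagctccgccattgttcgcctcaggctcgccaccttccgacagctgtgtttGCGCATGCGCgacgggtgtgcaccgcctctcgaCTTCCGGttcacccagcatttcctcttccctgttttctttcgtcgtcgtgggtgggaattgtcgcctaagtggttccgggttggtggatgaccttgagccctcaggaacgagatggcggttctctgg
UQCRQ: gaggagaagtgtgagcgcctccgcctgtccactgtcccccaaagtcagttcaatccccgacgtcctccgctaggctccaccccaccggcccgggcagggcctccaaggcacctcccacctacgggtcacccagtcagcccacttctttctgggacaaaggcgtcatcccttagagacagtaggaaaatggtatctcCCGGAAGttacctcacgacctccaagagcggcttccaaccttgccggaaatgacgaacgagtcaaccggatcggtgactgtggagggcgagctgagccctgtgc
COX6A1: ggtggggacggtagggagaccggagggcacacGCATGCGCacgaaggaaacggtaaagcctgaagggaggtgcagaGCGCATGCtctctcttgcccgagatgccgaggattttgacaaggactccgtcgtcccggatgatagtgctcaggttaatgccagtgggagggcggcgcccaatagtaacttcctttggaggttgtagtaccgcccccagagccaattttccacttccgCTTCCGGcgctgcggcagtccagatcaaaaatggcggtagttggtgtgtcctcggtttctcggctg
COX8A: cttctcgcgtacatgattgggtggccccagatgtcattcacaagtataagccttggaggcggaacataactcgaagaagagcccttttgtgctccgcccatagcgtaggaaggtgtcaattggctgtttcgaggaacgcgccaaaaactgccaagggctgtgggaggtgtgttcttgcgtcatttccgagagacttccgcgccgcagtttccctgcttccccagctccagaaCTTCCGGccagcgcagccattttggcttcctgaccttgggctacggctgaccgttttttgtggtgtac
ATP5PB: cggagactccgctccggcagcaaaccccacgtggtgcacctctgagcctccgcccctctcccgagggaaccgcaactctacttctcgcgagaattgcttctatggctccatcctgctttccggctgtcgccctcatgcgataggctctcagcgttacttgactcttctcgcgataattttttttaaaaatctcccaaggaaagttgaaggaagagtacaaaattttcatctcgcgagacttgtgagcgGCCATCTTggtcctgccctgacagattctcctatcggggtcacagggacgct
The capitals in SDHD are an NRF1 word, read on both strands with overlap, and an ETS word, and those in COX6A1 are 2 NRF1 words and 1 ETS word. UQCRQ and COX8A each hold 1 ETS word, and ATP5PB holds 1 YY1 word at its start. The window of ATP5MC1, the member of complex V with the most negative fold change, is not shown and holds 0 matches to any of these words.

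The NRF1 word was found in 8 of 29 members (27.6%), against 3.68% of 27305 genes with a window and 4.89% of 15843 coding genes. The ETS word was in 13 members (44.8%), against 12.2% of all and 16.5% of coding genes, and the YY1 word was in 5 (17.2%), against 3.52% of all and 4.66% of coding genes. At least 1 of the 3 was in 19 members (65.5%), against 17.6% of all and 23.4% of coding genes. Among the 13 members called by limma-voom that have a window, 4 held the NRF1 word, 7 the ETS word and 0 the YY1 word. Among the 16 members not called, 4 held the NRF1 word, 6 the ETS word and 5 the YY1 word. At least 1 of the 3 words was in 8 of the 13 called members and in 11 of the 16 not called. The 5 members with the YY1 word were SDHB, UQCRC1, ATP5PB, ATP5PF and ATP5PO. A match is a description of these letters and no measure of binding, and the counts were not tested.

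Some members share sequence with other annotated genes, and the sources used here do not tell if strand was used in counting. ATP5PF shares 413 exon bases, 20.2% of its exon length, with GABPA on the opposite strand, and GABPA had 12.6 and 11 FPKM in the knockdown libraries, against 8.12 and 9.27 FPKM in the controls (limma-voom adjusted p = 0.0644). Reads in that stretch cannot be assigned without strand. ATP5PB shares 350 bases with WDR77, which had 6.36 and 6.41 FPKM in the knockdown libraries, against 5.89 and 5.8 FPKM in the controls. ATP5PD shares 340 bases, 10.5% of its exon length, with KCTD2 on the opposite strand, which had 9.43 and 11.2 FPKM in the knockdown libraries, against 14.3 and 12.2 FPKM in the controls. KCTD2 held 918 to 1257 reads per library, about as many as ATP5PD with 841 to 1180. UQCRHL, a near copy of UQCRH to which reads of UQCRH could be split, had 3.36 and 4.26 FPKM in the knockdown libraries, against 4.77 and 4.81 FPKM in the controls. UQCRQ shares 306 bases with GDF9, which stayed below 1 FPKM in each library. ATP5F1E shares 1188 bases with TUBB1, at 0.202 FPKM or less. Pseudogenes were counted only where named after a member, so pseudogenes with other names are missed. Of the 36 members 26 have annotated pseudogenes with such names, 133 in all, of which 31 were in the table. In 7 members, SDHA, SDHD, UQCRFS1, COX5B, COX6A1, ATP5PD and CYCS, these pseudogenes held reads equal to at least 1% of the member's own in some library.

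**Figure D5:**
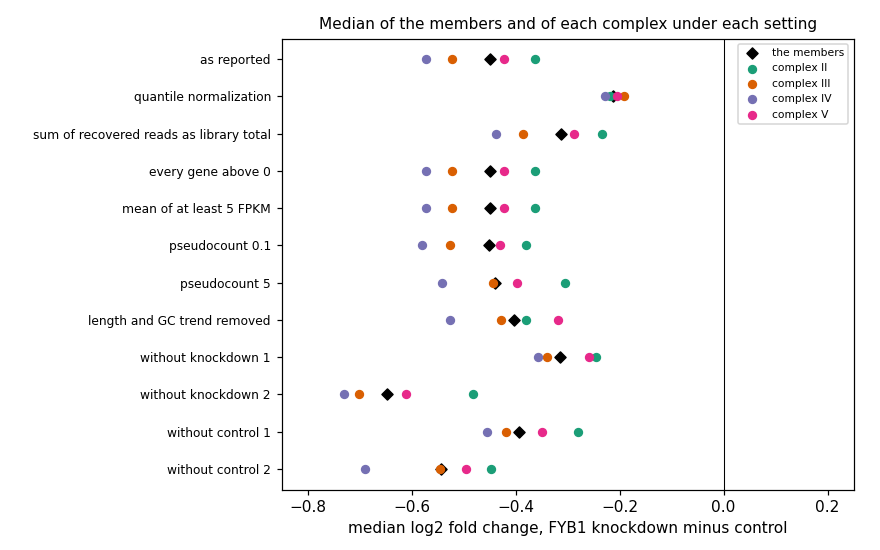
Median log2 fold change, FYB1 knockdown minus control, of the 36 members (black) and of complexes II to V (colours) under each processing setting, all read from limma-trend on log2(FPKM + pseudocount). Every median stays below 0, and the members' median runs from −0.65 without knockdown 2 to −0.21 after quantile normalization.

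Across the settings in the plot of medians, all 5 medians were below 0 throughout. The members' median was −0.31 without knockdown 1, −0.65 without knockdown 2, −0.39 without control 1 and −0.54 without control 2. Quantile normalization, which gives each library the same distribution of values, moved it to −0.21, with 30 of 36 members still lower in mean, and the median of all genes to 0.01. With libraries scaled by their summed reads the median of all genes was 0.08, a shift of over 0.1 from −0.03, and the members' median was −0.31.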

How the data were processed

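RNA was sequenced from 4 J-gammal libraries, 2 FYB1 knockdown and 2 control. Alignment used HISAT2 2.0.5 and hg38, per the submitters' processing notes. The counting program, the annotation and any strand setting were not given in the sources used here. The deposited values are FPKM as the authors scaled them; the header names no unit, and it was settled from the values. Each value times the merged exon length in GENCODE 29 came to whole numbers of reads, after division by 1 constant per library, for 100% of genes within 0.001 reads. The recovered reads sum to 16693113 to 20251864 per library, and each member held 299 to 19379 reads per library.

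The genes averaging at least 1 FPKM were tested by limma-trend (limma 3.58.1, R 4.3.3) on log2(FPKM + 1), group as the only term, with Benjamini-Hochberg adjustment over 13172 genes at a threshold of 0.05. The pseudocount of 1 understates changes of low genes. The recovered reads were tested by limma-voom with the authors' totals (18436617 and 20480491 for knockdown 1 and 2, 16648943 and 16789004 for controls 1 and 2) as library sizes. These totals were worked out from the constant of each library. They lie above the summed recovered reads in both knockdown libraries (16693113 and 20251864) and below them in both controls (17597678 and 17216663). The reason was not tested. Fold changes are knockdown minus control.

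The members and lists were chosen with earlier results of these data known. Full values are given for FYB1, for members called by either test and for the lowest and highest fold change in each complex. From each other list up to 3 genes are named. They are those called by limma-voom with the lowest adjusted p, otherwise the 2 with the highest mean. LCK, ATP5MF, PPARGC1A and the tissue-restricted isoforms were named outside this rule, as were genes of a ratio or of shared sequence. Alternatives were quantile normalization, a replicate block, summed reads as library totals, other filters (including a minimum mean of 20 reads), pseudocounts of 0.1 and 5, a loess correction (span 0.3) for exon length and GC content, and each library left out. A crossed block was added after seeing the data. Motif words were searched in RefSeq windows of GRCh38.p14, and coding bases were read from GENCODE 29.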

Additional observations from a re-analysis of the deposited data

How the results depend on the processing

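With 2 libraries a group, the calls were few and moved with the setting; the cause was not tested. Limma-trend called 27 genes over all tested genes, against 45 with quantile normalization, 77 with summed reads as library totals, 181 at a mean of at least 5 FPKM, 170 with the length and GC trend removed and 1019 by limma-voom. With every gene above 0 it called 0 of 28274 genes, with 3938 at an unadjusted p under 0.05. Leaving out each library gave 0 to 406. Of the members it called 0, against 1 at a mean of at least 5 FPKM, 1 with the length and GC trend removed, 17 by limma-voom and 0 to 1 with a library left out. Limma-voom called 17 members, against 0 with the sum of reads and 0 to 30 with a library left out.

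A replicate block on the library numbers raised the calls to 781 genes and to 3 members by limma-trend. By limma-voom it kept all 17, against 5.9% of all genes called lower. The labels do not say if the numbers pair the libraries. Across 13172 tested genes, the deviations of knockdown 1 and control 1 from their group means correlated at −0.207. With 1 such deviation per group for each gene, this value cannot settle whether the libraries were paired. With the crossed pairing, added after seeing the data, limma-trend called 1910 genes and 18 members. Limma-voom then called 30 members, against 4007 genes in all and 19.6% of all genes called lower.

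Quantile normalization moved the medians to −0.21 for the members, −0.22 for complex II, −0.19 for complex III, −0.23 for complex IV and −0.20 for complex V, and the sum of reads moved complex II to −0.23. With a library left out the members' median ran from −0.65 to −0.31 and that of complex IV from −0.73 to −0.36. Of the single-gene values under the alternatives, 444 kept direction and side of the threshold, 23 newly passed, 3 no longer passed and 11 turned. Under quantile normalization the turned values were 0.0149 for UQCRC1, 0.0677 for UQCRC2, 0.13 for COX5A, 0.0266 for ATP5F1B, 0.20 for ATP5F1C and 0.24 for ATP5PB. The sum of reads gave 0.0267 for ATP5F1C and 0.13 for ATP5PB, and the length and GC correction gave 0.0234 for ATP5PB. With a library left out ATP5F1C ran from −0.222 to 0.00357 and ATP5PB from −0.0346 to 0.0196.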
